A study of Mus musculus with 4 samples.

Results

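Chromatin accessibility was examined at 10 genes for neuronal adhesion and guidance receptors, the teneurins Tenm1, Tenm2, Tenm3 and Tenm4, the latrophilins Adgrl1, Adgrl2 and Adgrl3, the LDL receptor relative Lrp1b, and the astrotactins Astn1 and Astn2. ATAC-seq, in which a transposase cuts open DNA and tags the ends for sequencing, had been run on mouse embryonic stem cells (mESCs) of the wild-type line ES-E14TG2a during differentiation toward cardiogenic mesoderm. Both d2 libraries came from cells on day 2 in serum-free medium, before any factor was added. Both d4 libraries came from cells on day 4, after 40 h with 8 ng/ml Activin A, 0.5 ng/ml BMP4 and 5 ng/ml VEGF. The 2 libraries of each time point came from independent differentiation experiments, and the d4 culture was not sorted, so that it may hold cells in several states. In such bulk samples, fewer cells with an open site and less opening per cell cannot be told apart.

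The deposited data were 1 list of peaks per library. Peaks sharing 1 bp or more across the lists were joined, which gave 40910 union regions, and a region was given to a gene when that gene had the nearest protein-coding transcript start within 100 kb or when the region lay inside the gene body. The 10 genes held 106 union regions, out of 16117 coding genes with at least 1. A region with a peak in both d2 libraries and in neither d4 library is called d2-only here, and the reverse d4-only. The gene set was chosen by its d2-only regions at Tenm2, Adgrl3, Lrp1b and Astn2, so the d2-only counts of these genes are a description and not a finding. Members are numbered from the 5′ end of each gene, as in Lrp1b r8, the 8th region of Lrp1b.

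Teneurins are large transmembrane proteins that bind latrophilins, which are adhesion G protein-coupled receptors, on the facing cell. The pair is known for synapse formation and for guiding axons, and the FLRT proteins bind latrophilins as well. Lrp1b is a large endocytic receptor, and astrotactins are membrane proteins that act when neurons migrate along glial fibres. Tenm4 has also been tied to gastrulation, the stage at which mesoderm forms in the mouse embryo.

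The sequences of 8 regions are shown because the results turn on them. They are the strongest d2-only region of each of the genes that chose the set, the strongest d4-only region of all, both d4-only regions of Lrp1b, and the strongest region away from a promoter that was called in all 4 libraries. Each is a window of 201 bases around the summit of its strongest peak, on the plus strand of mm10 (read from RefSeq's GRCm38.p6 assembly), with matches to any of 17 motifs in capitals. No window touches an exon.
Lrp1b r8, chr2:40910934-40911134: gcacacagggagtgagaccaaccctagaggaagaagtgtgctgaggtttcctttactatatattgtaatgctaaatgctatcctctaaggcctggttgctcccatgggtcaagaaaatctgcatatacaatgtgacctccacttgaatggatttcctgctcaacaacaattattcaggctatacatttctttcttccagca
Astn2 r5, chr4:66330666-66330866: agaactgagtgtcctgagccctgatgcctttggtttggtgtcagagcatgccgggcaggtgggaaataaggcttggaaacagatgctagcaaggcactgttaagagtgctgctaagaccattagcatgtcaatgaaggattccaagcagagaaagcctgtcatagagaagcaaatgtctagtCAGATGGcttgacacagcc
Adgrl3 r9, chr5:81556218-81556418: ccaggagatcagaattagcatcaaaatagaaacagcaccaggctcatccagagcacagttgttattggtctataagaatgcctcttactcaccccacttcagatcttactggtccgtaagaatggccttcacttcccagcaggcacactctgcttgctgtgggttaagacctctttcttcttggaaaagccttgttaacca
Tenm2 r4, chr11:37031864-37032064: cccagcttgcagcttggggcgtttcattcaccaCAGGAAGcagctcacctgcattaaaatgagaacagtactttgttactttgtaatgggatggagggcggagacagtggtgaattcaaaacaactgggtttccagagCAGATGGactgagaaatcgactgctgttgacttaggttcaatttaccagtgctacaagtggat
Tenm4 r13, chr7:96421335-96421535: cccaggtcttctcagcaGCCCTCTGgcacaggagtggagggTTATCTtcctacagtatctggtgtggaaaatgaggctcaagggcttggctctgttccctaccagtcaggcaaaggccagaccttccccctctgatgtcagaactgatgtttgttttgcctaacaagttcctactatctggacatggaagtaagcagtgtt
Lrp1b r5, chr2:41382801-41383001: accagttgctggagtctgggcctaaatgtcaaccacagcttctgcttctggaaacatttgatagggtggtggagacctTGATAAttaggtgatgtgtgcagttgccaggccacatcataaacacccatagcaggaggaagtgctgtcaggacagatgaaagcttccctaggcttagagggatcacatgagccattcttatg
Lrp1b r7, chr2:41019878-41020078: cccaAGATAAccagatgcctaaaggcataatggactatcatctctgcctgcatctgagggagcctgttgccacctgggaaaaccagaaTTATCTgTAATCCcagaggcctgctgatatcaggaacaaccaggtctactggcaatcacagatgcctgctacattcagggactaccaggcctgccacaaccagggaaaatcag
Tenm4 r3, chr7:96153118-96153318: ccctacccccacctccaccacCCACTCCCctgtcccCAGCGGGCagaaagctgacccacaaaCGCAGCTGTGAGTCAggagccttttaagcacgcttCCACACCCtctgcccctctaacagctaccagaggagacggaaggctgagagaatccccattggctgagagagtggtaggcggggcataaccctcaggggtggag
Lrp1b r8 and Adgrl3 r9, both d2-only, held no match. Astn2 r5 held the proneural E-box letters, and Tenm2 r4 held these and the ETS letters. The 3 d4-only windows shown all held the GATA letters, with a pair of matches in Lrp1b r7, while 8 of all 15 d4-only members held them.

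Of the 106 regions, 25 were d2-only, 15 were d4-only, 15 had a peak in all 4 libraries, 4 had a peak in 3, 3 had a peak in 1 library of each time point and 44 in a single library. The d2-only regions were 23.6% of the members' regions, beside 13.8% of all union regions. The d4-only regions were 14.2%, beside 9.93%, but when regions were given by the nearest start alone the share was 9.52%, below that of the series. Regions in all 4 libraries were 14.2%, beside 28.1%. Most regions of these genes lay in introns, and 70 of the 106 were intronic, outside exons and over 1000 bp from any transcript start. Among these, 20 (28.6%) were d2-only, 13 (18.6%) were d4-only and 3 (4.29%) were in all 4 libraries. In the same kind of region over the series, 16.8% were d2-only, 17.4% were d4-only and 5.4% were in all 4. Within introns, the d4-only share and the share open in every library thus lay near those of the series.

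**Figure D1:**
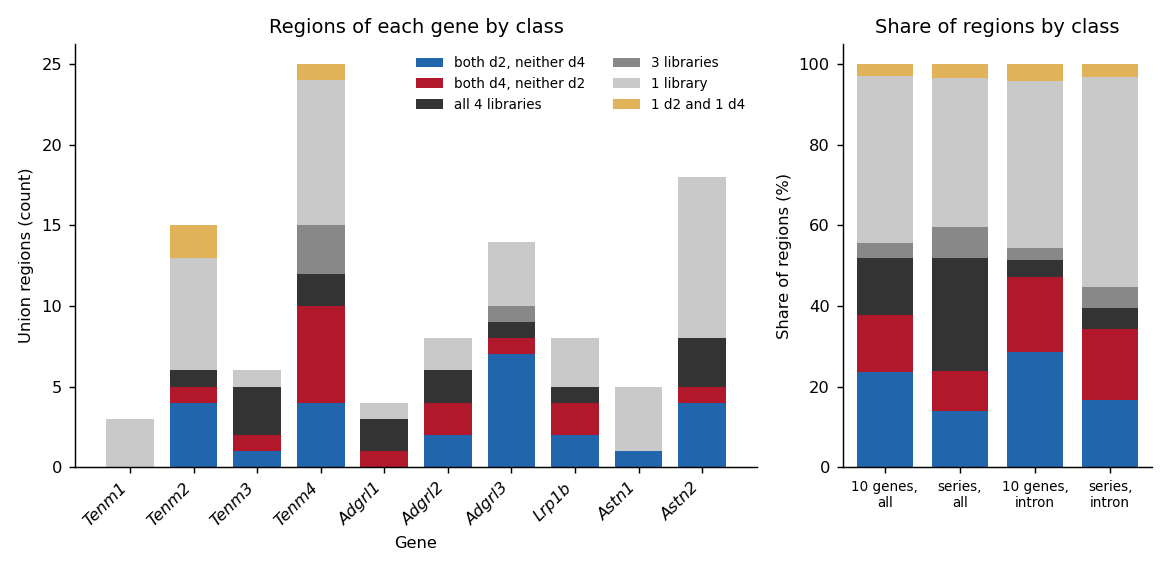
Left, union regions (y axis, count) of each of the 10 genes (x axis), coloured by the libraries that called them. Right, the share of regions (y axis, %) in each of these classes for the 10 genes and for the series, over all regions and over intronic ones; the d2-only share is 23.6% against 13.8% over all regions.

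Most d2-only regions lay at the genes that had been chosen for them. Tenm2, Adgrl3, Lrp1b and Astn2 held 17 d2-only and 5 d4-only regions among 55. The other 6 genes held 8 d2-only regions among 51, or 15.7%, which is near the 13.8% of the series. They held 10 d4-only regions, or 19.6% beside 9.93% in the series, and 6 of these 10 were at Tenm4 alone. In their introns the shares were 16.1% d2-only and 25.8% d4-only among 31 regions, beside 16.8% and 17.4% in the series. The line between chosen and other genes was not sharp, since Adgrl2 had 2 d2-only regions, as many as Lrp1b, and Tenm4 had 4, as many as Tenm2 and Astn2.

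The number of d2-only regions per gene ran from 0 to 7. At least 1 such region was found at 25.8% of the coding genes with a region, and at least 1 d4-only region at 16.3%. Adgrl3, with 7, was among 9 coding genes with at least that many. Tenm2, Tenm4 and Astn2, with 4 each, were among 76. Tenm4 also had 6 d4-only regions, a number reached by 8 coding genes. By the total number of regions, Tenm4, with 25, was among 10 genes with at least as many, Astn2, with 18, among 33 and Tenm2, with 15, among 68.

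**Figure D2:**
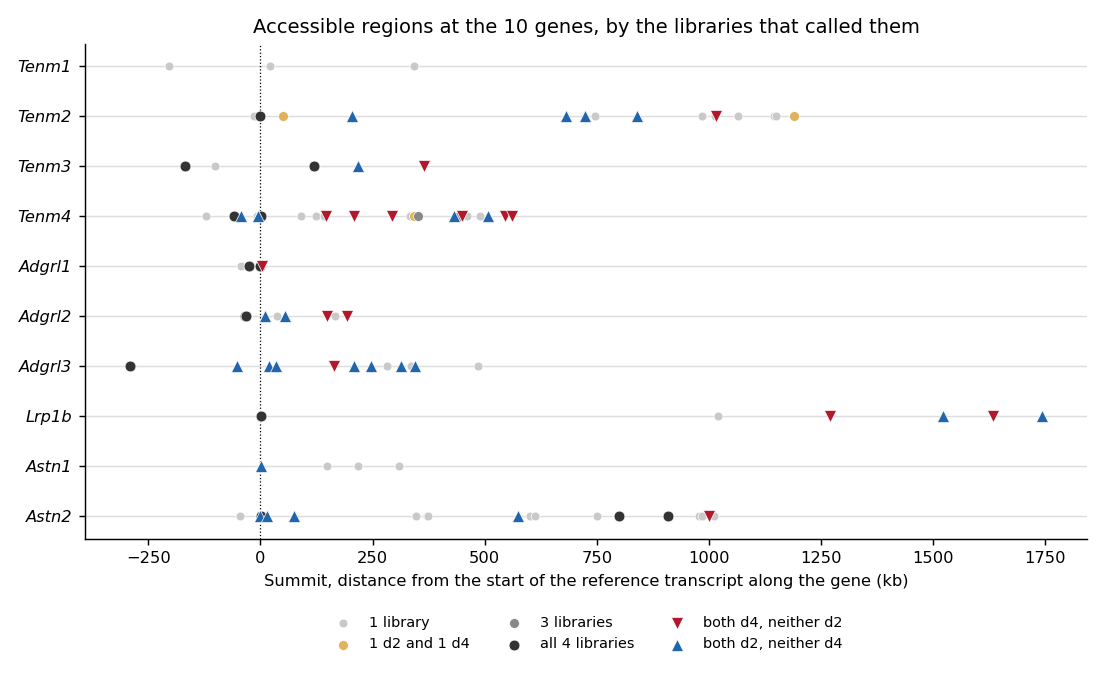
Position of each of the 106 regions along its gene (x axis, kb from the start of the reference transcript to the summit, positive in the direction of transcription), with 1 line per gene. Blue triangles are d2-only and red triangles d4-only regions, and they lie up to 1743 kb from the start (Lrp1b r8), while most regions in all 4 libraries (black) lie near a start.

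Of the teneurins, which sit on one side of the adhesive pair, Tenm2 had 4 d2-only regions and 1 d4-only region. Its strongest d2-only region, Tenm2 r4 (chr11:37031608-37032080, intron 2), was enriched 12.5-fold in d2 replicate 1 and 10.8-fold in d2 replicate 2. The fold enrichment is the pileup of fragments at the summit over the local background, as written by the peak caller. The other 3, Tenm2 r5, r6 and r8, all lay in intron 4, between 682 and 839 kb from the transcript start, with folds of 6.34 to 8.49. The d4-only region, Tenm2 r11 in intron 8, was enriched 9.06-fold and 7.22-fold in the d4 replicates. Of the remaining regions of Tenm2, 1 was in all 4 libraries, 2 were in 1 library of each time point and 7 were in a single library.

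Tenm4 had more d4-only regions than any other member, beside 4 d2-only ones. Its d4-only regions r12, r13, r14, r20, r24 and r25 all lay in introns, between 146 and 562 kb from the transcript start. The strongest was Tenm4 r13 (chr7:96421311-96421524, intron 2), with 9.75-fold and 10.5-fold enrichment in d4 replicates 1 and 2. Tenm4 r24 (intron 11) followed with 10.8-fold and 9.17-fold, and Tenm4 r25 (intron 12) with 9.35-fold and 8.63-fold. The d2-only regions of the same gene lay near its starts and among the d4-only ones. Tenm4 r4 (chr7:96168960-96169238), 2.01 kb upstream of the nearest Tenm4 start, was enriched 9.44-fold and 11.7-fold at d2, and Tenm4 r6 7.52-fold and 9.41-fold. Tenm4 r18 overlapped exon 6, with 6.18-fold and 7.71-fold, and Tenm4 r23 lay in intron 8, with 5.41-fold and 6.27-fold. Regions of both kinds were thus interleaved along this gene.

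Tenm3 had 1 region of each kind. Tenm3 r6 (chr8:48308905-48309378, intron 13) was d4-only with 7.99-fold and 9.05-fold, and Tenm3 r5 (intron 2) was d2-only with 5.69-fold and 6.97-fold. Tenm1, on the X chromosome, had 3 regions, each in a single library with a summit pileup between 7 and 9, and no region within 1000 bp of a coding start.

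Of the latrophilins, Adgrl3 had the most regions. Its 7 d2-only regions began 53.2 kb upstream of the reference transcript start and ran to 344 kb within the gene, and 4 of them lay in introns 6, 7 and 9. Adgrl3 r9 (chr5:81556090-81556480, intron 6) was enriched 14.5-fold and 13.8-fold at d2. Adgrl3 r13 (intron 9) had 12.3-fold and 13.5-fold. Adgrl3 r6 (chr5:81344385-81344666, intron 2) had 19.7-fold in replicate 1 but 11.8-fold in replicate 2, the widest gap between replicates among these regions. Adgrl3 r11, r5, r4 and r8 had folds from 6.93 to 13.4, and r5 overlapped exon 2. The single d4-only region, Adgrl3 r7 (intron 4), had 7.92-fold and 7.39-fold.

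Adgrl2 had 2 regions of each kind, in separate places. Both d2-only regions lay in intron 1, Adgrl2 r3 with 11.3-fold and 9.75-fold and Adgrl2 r5 with 6.34-fold and 7.05-fold. Both d4-only regions lay downstream of the gene's 3′ end, 147 and 192 kb from the start of the reference transcript. Adgrl2 r8 (chr3:148762574-148762950) had 7.94-fold and 9.24-fold at d4, and Adgrl2 r6 had 6.44-fold and 4.68-fold. Adgrl1, the shortest of the 10 genes, had 1 d4-only region in intron 1 (4.76-fold in both d4 replicates) and no d2-only region.

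Lrp1b, whose body spans 2058 kb, had 8 regions, among them the strongest d2-only one. Lrp1b r8 (chr2:40910901-40911285) lay in intron 47, 1743 kb from the transcript start, with 19.9-fold and 20.6-fold enrichment at d2 and summit pileups of 48 and 47 fragments. By the lower of its folds it ranked 1 among all 5664 d2-only regions of the series. Lrp1b r6 (intron 35) was enriched 10.2-fold and 10.8-fold, and 82.6% of its summit window is masked as repeat in the RefSeq assembly. Nearer the start than both, Lrp1b r5 (chr2:41382794-41382978, intron 20) was d4-only with 10.3-fold and 8.60-fold, and between r6 and r8, Lrp1b r7 (intron 41) was d4-only with 6.27-fold and 5.73-fold. The order along the gene was thus d4-only, d2-only, d4-only, d2-only.

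Astn2, an astrotactin that acts on the surface level of Astn1, held the region that ranked 2 of 5664. Astn2 r5 (chr4:66330594-66330973, intron 1) was enriched 17.9-fold and 20.2-fold at d2, with pileups of 45 and 51. Astn2 r9 (intron 10) had 11.6-fold and 11.2-fold, and Astn2 r4 (intron 1) 8.58-fold and 9.18-fold. Astn2 r17 (intron 20), the d4-only region, had 6.87-fold and 7.77-fold. A further 10 regions of Astn2 were called in a single library, and without d4 replicate 2 its d4-only count went from 1 to 7.

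At the starts of the astrotactin genes, the d2-only class reached a promoter. Astn1 r1 (chr1:158362104-158362857) covered the Astn1 start with 7.86-fold and 7.78-fold at d2, and its summits were 479 bp apart between the replicates, the largest gap among the d2-only members. Its other 4 regions were in a single library each, and 3 of them counted as d4-only without d4 replicate 2. Astn2 r2, at the Astn2 start, had 5.77-fold and 6.25-fold at d2, but Astn2 r3, 506 bp from the start, had a peak in all 4 libraries. These were the 2 d2-only regions within 1000 bp of a member's own coding start, and no d4-only region lay there. Both calls depended on how peaks were joined. With a 50% reciprocal overlap the d2-only count of Astn1 went from 1 to 0. With merging within 500 bp that of Astn2 went from 4 to 3. By the wider measure of a start of any transcript, 3 of 21 promoter regions of the members (14.3%) were d2-only and 0 were d4-only, beside 9.87% and 2.74% of the 18164 in the series.

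**Figure D3:**
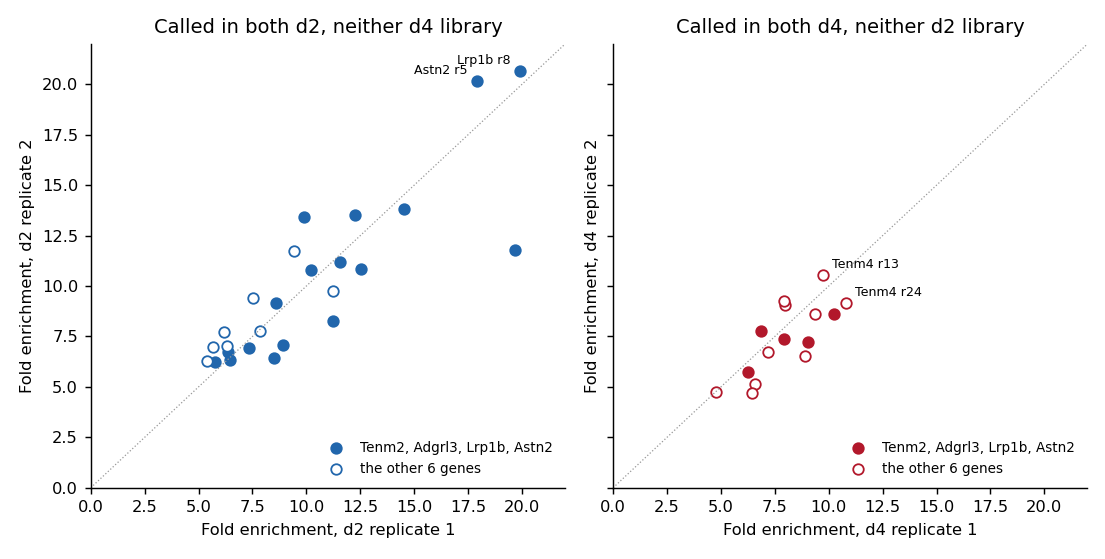
Fold enrichment in replicate 1 (x axis) against replicate 2 (y axis) for the 25 d2-only regions (left) and the 15 d4-only regions (right), with filled points for the genes that chose the set and the 2 strongest regions of each class named. Lrp1b r8 and Astn2 r5 lie at about 20-fold in both d2 libraries, while no d4-only region has both folds above 9.75.

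By the lower of the folds in the replicates, the d2-only members ran from 5.41 (Tenm4 r23) to 19.9 (Lrp1b r8), with a median of 8.27. The median over all d2-only regions was 6.74, and over the intronic ones 7.13. These members include 17 at the genes that chose the set, so their median is a description and not a finding. At the other 6 genes, the 8 d2-only regions had 9.75, 9.44, 7.78, 7.52, 6.34, 6.18, 5.69 and 5.41. Of the 25, 9 lay among the highest 10% of d2-only regions in the series, all of them at the genes that chose the set. The d4-only members ran from 4.68 (Adgrl2 r6) to 9.75 (Tenm4 r13), with a median of 7.22 beside 6.89 for the series, and 0 of 15 lay among the highest 10%. Replicate summits of d2-only members lay a median of 37 bp apart, and those of d4-only members 69 bp, against 43 and 41 bp in the series.

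Members at the edge of the d2-only class differed from those inside it by 1 peak. The weakest inside was Tenm4 r23, with a −log10 q of 4.92 and 6.33 in the d2 replicates, while the lowest value in any list was 3.00. Just outside were 20 regions with a peak in 1 d2 library alone, of which Adgrl2 r7 (10.3-fold in d2 replicate 2), Lrp1b r3 (9.42-fold in d2 replicate 2) and Adgrl3 r12 (8.76-fold in d2 replicate 2) had folds as high as many members inside. A further 24 regions had a peak in 1 d4 library alone, among them Astn2 r16 (10.5-fold in d4 replicate 1). When d4 replicate 1 or d4 replicate 2 was left out, so that 1 peak sufficed at d4, the d4-only count rose from 15 to 24 and 31. Without d2 replicate 1 or d2 replicate 2, the d2-only count rose from 25 to 33 and 37.

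The genome-wide background, used here in place of read depth, was not lower in the d4 libraries. The peak lists do not give the number of reads per library. The genome-wide background, solved from the fold and p of each peak, was 0.568 fragments per base in d2 replicate 1 and 0.483 in d2 replicate 2, and it was higher, at 0.755 and 0.744, in the d4 replicates. The lists held between 21299 and 26865 peaks, with fewer at d4, and the smallest summit pileup called was 6 at d2 and 7 at d4. A peak was present at 56 and 52 of the 106 regions in d2 replicates 1 and 2, and at 52 and 42 in d4 replicates 1 and 2. A site with fewer fragments than these pileups was not detectable at this depth, so the lack of a peak does not show closed chromatin. For the number of peaks called per library, the only alternative took equal numbers of peaks per library. It left 13 d2-only (22.8%) and 11 d4-only regions (19.3%) at the members. In the series this setting gave 10.2% d2-only and 11.1% d4-only, beside 13.8% and 9.93% in the main setting. It does not equalise depth, and the part of depth in the counts was not tested.

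Starts of most members were open at both time points. Of 15 regions in all 4 libraries, 8 lay within 1000 bp of a coding start of their gene, at Tenm2, Tenm3, Adgrl1, Adgrl2, Lrp1b and Astn2. Adgrl3 r1, 1.23 kb from the nearest coding start, was also in all 4, with folds of 10.1 and 9.14 at d2 and 6.82 and 7.32 at d4. Tenm4 r7 at the start of the Tenm4 reference transcript was called in 3 libraries, with pileups of 20 in d2 replicate 1 and of 22 and 21 in d4 replicates 1 and 2, but not in d2 replicate 2. Thus Astn1 and Tenm1 were the members for which no region near a start was called at d4. Astn2 r13 (intron 16, 14.4-fold, 13.3-fold, 12.5-fold and 10.3-fold in d2 replicates 1 and 2 and d4 replicates 1 and 2) covered the start of Trim32, a ubiquitin ligase gene nested in Astn2, which was its nearest coding start.

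At these 15 regions the summit pileup was divided by the genome-wide background of its library, so that levels could be set side by side. After this division the mean of the d4 libraries was below that of the d2 libraries at 13 of 15 regions. The same held at 86.9% of the 11494 such regions of the series, so a lower divided value at d4 was common across the series. The background was higher at d4, at 0.755 and 0.744 beside 0.568 and 0.483 at d2, and the direction at some regions rests on it. Undivided pileups at Adgrl2 r1 were 23 and 32 at d2 and 39 and 36 at d4. Those at Tenm4 r8 were 36 and 43 at d2 and 26 and 21 at d4, so they were lower without the division too. The median ratio of divided values, d4 to d2, was 0.610 in the members and 0.718 in the series. At Tenm4 r8, in intron 1, the values were 63.3 and 89.0 at d2 and 34.4 and 28.2 at d4, a ratio of 0.411 without overlap of the libraries. At Astn2 r3 they were 24.6 and 43.5 at d2 and 14.6 and 14.8 at d4, a ratio of 0.431. Lrp1b r2, at the Lrp1b start, had 21.1 and 24.8 at d2 and 13.2 and 14.8 at d4, and so had low levels throughout. Tenm4 r3, 17.9 kb upstream of a Tenm4 start, had 63.3 and 89.0 at d2 and 46.3 and 37.6 at d4. The exceptions were Astn2 r14 in intron 19, with 19.4 and 37.3 at d2 and 38.4 and 34.9 at d4, and Adgrl2 r2, with 35.2 and 53.8 at d2 and 64.9 and 34.9 at d4. In both of these the libraries of the time points overlapped. They overlapped as well at Tenm3 r4, Adgrl1 r3, Adgrl2 r1 and Astn2 r13, where the divided mean was lower at d4. With 2 libraries against 2, the smallest p of an exact two-sided permutation test is 0.333, and none was run.

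**Figure D4:**
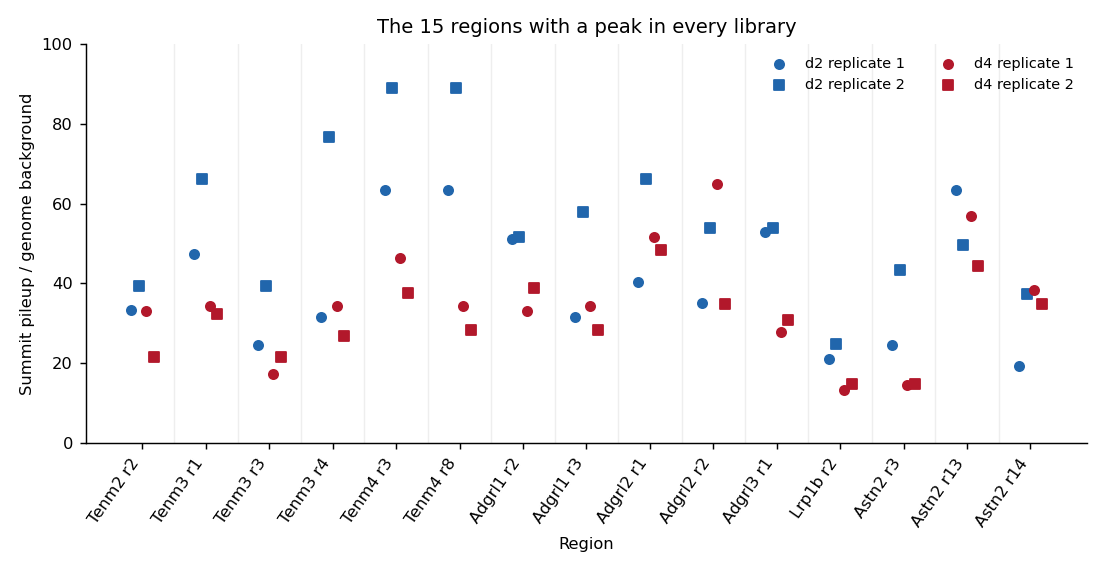
Summit pileup divided by the genome-wide background of the library (y axis, ratio) at the 15 regions with a peak in every library (x axis), with d2 libraries in blue and d4 libraries in red (circles, replicate 1; squares, replicate 2). After this division, mean d4 values are below mean d2 values at 13 of the 15, the exceptions being Adgrl2 r2 and Astn2 r14.

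The DNA of these regions was then searched, on both strands of the 201-base window around the summit, for 17 motifs that the choice of members had not used. GATA factors are regulators of mesoderm and of blood and endothelial genes. Their letters (AGATAA or TGATAA) were found in 8 of 15 d4-only members (53.3%) and in 0 of 25 d2-only members. In the series they were found in 51.3% of d4-only regions, 7.70% of d2-only regions and 15.5% of all 40910 regions. The d4-only regions of these neuronal adhesion genes thus held the GATA letters about as often as d4-only regions elsewhere. They were found in both d4-only regions of Lrp1b, both of Adgrl2, 3 of 6 of Tenm4 (r12, r13 and r25) and the single one of Tenm3, and in none of those of Tenm2, Adgrl1, Adgrl3 and Astn2.

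Letters of the TEAD factors (GGAATG), nuclear partners of the Hippo pathway, were in 5 of 15 d4-only members (33.3%) and 2 of 25 d2-only members (8.0%), beside 23.2% and 10.6% in the series and 12.0% of all regions. The ETS letters (CCGGAAG or CAGGAAG), for a family with endothelial members, were in 3 of 15 and 4 of 25, beside 20.7% and 13.5% in the series and 17.0% of all regions. AP-1 letters (TGANTCA) were in 2 d4-only members and 1 d2-only member, beside 11.4% and 5.76% in the series and 6.18% of all regions. Forkhead (TGTTTAC) and TCF/LEF (ATCAAAG) letters were each in 1 d4-only member and 0 d2-only members, and in 3.15% and 2.77% of all regions. In the series, forkhead letters were in 7.38% of d4-only and 2.00% of d2-only regions, and TCF/LEF letters in 5.05% and 3.02%.

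The POU, SOX and ESRRB letters were found in none of the d2-only and d4-only members. The octamer of POU factors such as Oct4 (ATGCAAAT), the SOX letters (CATTGTT or CCATTGT) and the ESRRB letters (TCAAGGTCA) were in 0 of 25 d2-only and 0 of 15 d4-only members. In the series, 4.20% of d2-only regions held the octamer, 6.36% the SOX letters and 0.230% the ESRRB letters, so that at 25 regions few matches would have been counted at those shares. Over all regions these shares were 1.89%, 4.17% and 0.200%. The SP letters (GGGGCGGGG, 7.75% of all regions) and the T-box letters (AGGTGTGA, 0.885% of all regions) were absent from the d2-only and d4-only members too.

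Other letters were found in a few members each. Those of OTX (GGATTA) and of ZIC (CAGCTGNG) factors were in 3 of 25 d2-only members (12.0%) each, beside 9.59% and 10.5% of d2-only regions and 5.60% and 8.74% of all regions in the series. Of 15 d4-only members, 1 held the OTX and 0 held the ZIC letters, beside 5.51% and 9.94% of d4-only regions. The proneural E-box (CAGATGG), bound by neuronal basic helix-loop-helix factors, was in 3 of 25, at Lrp1b r6, Astn2 r5 and Tenm2 r4, beside 4.54% of d2-only regions and 4.42% of all regions. All 3 lay at the genes that chose the set. It was also in 1 of 15 d4-only members, beside 6.89% of d4-only regions. Within introns of the series it was in 5.23% of d2-only and 6.29% of all regions. Part of the site of REST (GGACAGCNC), a repressor of neuronal genes, was in 2 of 25, at Tenm4 r18 and Adgrl2 r5, beside 1.66% of d2-only and 1.90% of all regions. It was in 0 of 15 d4-only members, beside 0.714% of d4-only regions. KLF letters (GGGNGTGG) were in 2 of 25 d2-only and 2 of 15 d4-only members, beside 13.0% and 7.36% in the series and 12.3% of all regions. The core of the CTCF site (CAGNGGGC) was in 1 of 25 and 3 of 15, beside 10.6% and 5.27% in the series and 10.1% of all regions. At Tenm4 r3 ZIC letters overlapped one another and the AP-1 letters.

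**Figure D5:**
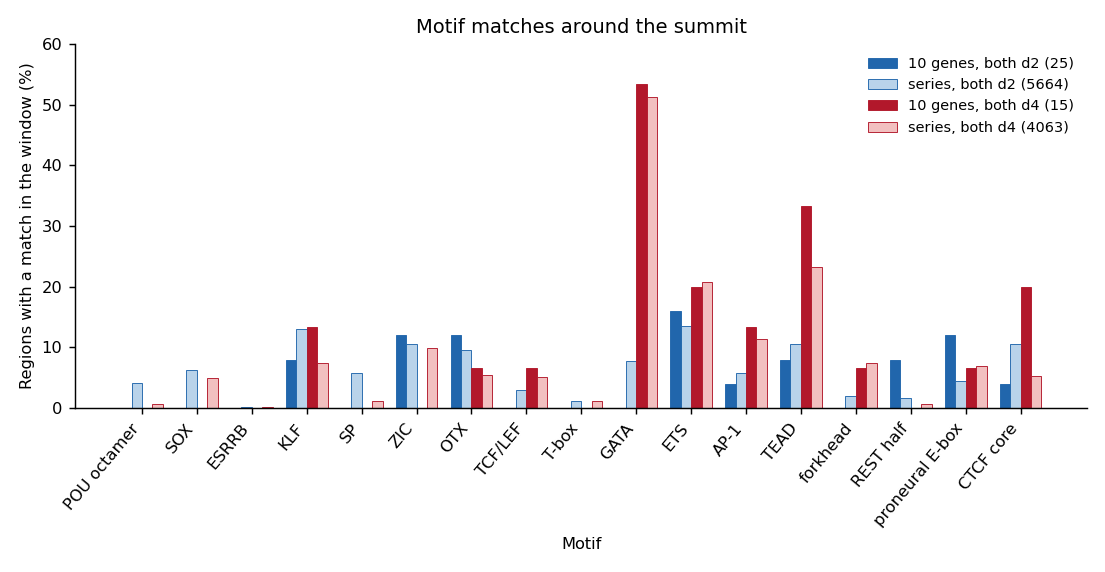
Share of regions (y axis, %) with a match to each of 17 motifs (x axis) in the 201 bases around the summit, for the d2-only and d4-only regions of the 10 genes (dark) and of the series (light). GATA letters are in 53.3% of the d4-only members and 51.3% of the d4-only regions of the series, and in none of the 25 d2-only members.

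The d2-only members as a set were poorer in G and C than such regions elsewhere, with a median of 50.2% in the summit window beside 55.7% for the series. Within introns these medians were 49.3% and 52.7%. Most d2-only members, 17 of 25, lay at the genes that chose the set. The 8 at the other 6 genes had 57.2%, 55.2%, 47.3%, 58.2%, 50.7%, 50.2%, 55.2% and 65.2%. Over all d4-only members the median was 50.7% beside 51.2%. The members' regions in all 4 libraries had 66.7% beside 65.2%. The median width was 331 bp for d2-only, 291 bp for d4-only and 549 bp for regions in all 4 libraries. A window made of repeats by at least 50% was found in 1 of the 25 d2-only members, Lrp1b r6, and in 2.75% of all d2-only regions.

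Among 613 other coding genes with at least as many regions as Lrp1b, the gene with the fewest of the genes that chose the set, the split over classes most like theirs was found at Cdh4, Plcb1, Epb41l3, Dlgap1 and Itpk1. Likeness was the Euclidean distance between shares of d2-only, d4-only, all-4 and other regions over the 4 libraries. Cdh4, which encodes a cadherin, and Plcb1, a phospholipase C, each had 3 d2-only regions, 1 d4-only and 1 in all 4 among 10, at a distance of 0.0182. Epb41l3, a membrane skeleton protein, had 4 d2-only regions among 12 (distance 0.0373). Dlgap1, a scaffold protein of the postsynaptic density, had 8 among 23 (distance 0.0465), and Itpk1, an inositol phosphate kinase, had 3 among 9 (distance 0.0562). Tenm4 and Adgrl2 were farther away, at 0.215 and 0.327.

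The wider partners of these proteins were counted next, beside 13.8% d2-only and 9.93% d4-only regions in the series. A list of 10 genes (Flrt1, Flrt2, Flrt3, Unc5a, Unc5b, Unc5c, Unc5d, Nrxn2, Nrxn3 and Adgrl4) held 72 regions, of which 14 (19.4%) were d2-only and 9 (12.5%) were d4-only. Neurexins are presynaptic receptors that latrophilins can also bind. Nrxn3 had 6 d2-only and 2 d4-only regions among 30 and Nrxn2 had 2 and 0 among 4. Of the netrin and FLRT receptors, Unc5b had 2 and 0 among 5, and Unc5c had 2 and 4 among 14.

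Among 44 further genes for synaptic adhesion, 42 had regions, 237 in all, with 46 (19.4%) d2-only and 24 (10.1%) d4-only, beside the same 13.8% and 9.93%. Of these genes, 15 had d2-only regions without a d4-only one, 2 had the reverse, 10 had both and 15 had neither. Over all coding genes with a region, 25.8% had at least 1 d2-only region and 16.3% at least 1 d4-only region. The split without overlap is not given for all genes, so these 4 counts have no like share beside them. Dscam, a receptor for self-avoidance of neurites, had 6 d2-only and 0 d4-only regions among 15. Sdk1, an immunoglobulin superfamily adhesion protein, had 4 and 1 among 10, while its relative Sdk2 had 1 and 2 among 14. Of the contactins, Cntn2 had 3 and 0 among 6, Cntn4 3 and 0 among 7 and Cntn5 3 and 2 among 11. Lrrtm4 (2 of 3), Ptprs (2 of 6) and Cntnap5a (2 of 10) had d2-only regions and no d4-only one.

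The reverse balance was seen at some of the same families. Cntnap2, a neurexin relative of the axon, had 1 d2-only and 6 d4-only regions among 19. The receptor phosphatase gene Ptprd had 1 and 3 among 19, and Il1rapl1, which encodes a partner of Ptprd, had 1 and 2 among 5. Clstn2 (2 and 2 among 5), Epha4 (2 and 2 among 10) and Ntrk3 (3 and 1 among 7) had both. The 13 LDL receptor family genes, relatives of Lrp1b, had 3 d2-only (6.38%) and 5 d4-only regions (10.6%) among 47, with Vldlr, a reelin receptor, at 0 and 2 among 4. Brinp1, Brinp2 and Brinp3, relatives of the astrotactins, had 1 of each kind among 7.

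The labelled cell states were looked at through marker genes. Genes for pluripotency had 14 d2-only (25.0%) and 5 d4-only regions among 56, with 3 and 0 at L1td1, 2 and 0 at Sall4 and at Utf1, and 2 and 1 at Klf4 and at Epcam. The counts were 1 and 0 at Pou5f1, Esrrb and Zfp42, but 0 and 1 at Nanog, Tfcp2l1 and Dppa4. Mesoderm genes had 3 d2-only and 8 d4-only (15.4%) among 52, with 0 and 2 at Isl1, 1 and 2 at Eomes, but 2 and 0 at Hand2. Endothelial genes had 6 d2-only and 8 d4-only (12.1%) among 66, with 0 and 3 at Aplnr, but 2 and 1 at Fli1 and 2 and 0 at Cldn5. Neural genes had 17 d2-only (20.7%) and 8 d4-only regions among 82, with 3 and 0 at Sox1 and at Pax3, 2 and 0 at Olig2 and at Otx2, and 2 and 6 at Syt1. Beside the 13.8% d2-only and 9.93% d4-only of all union regions, the d2-only share was thus higher in the pluripotency and neural lists and the d4-only share in the mesoderm list, while the endothelial d4-only share lay near that of the series. No test was made of these shares, and the part of a cell type in the members' counts was not tested.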

How the data were processed

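Reads had been quality-checked (FastQC), adapter-trimmed (cutadapt) and mapped to mm10 (Bowtie2) by the authors, as stated in their methods and in the labels. Duplicates and reads with several positions were dropped, MACS2 called peaks separately in each library, and blacklisted peaks were taken out. Each deposited peak carries a fold enrichment (the ratio of pileup to local background at the summit), and −log10 p and −log10 q values, both written by the authors' caller.

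Peaks of the 4 libraries were merged into union regions and assigned with GENCODE M 21 transcripts. The fold equals (pileup + 1)/(background + 1), and together with the Poisson p it gave whole pileups for 100% of peaks (to within 0.01 in −log10 p). The stated options combine paired-end mode with a read extension, so a pileup may count extended reads in place of fragments. Region classes and pileups were tested on simulated data. Motifs were exact matches. Peak lists hold no reads per region, so no p-value is given between time points. Members and lists were chosen with earlier results of these data known. Genes named were the members, list genes with at least 2 d2-only or 2 d4-only regions, and the 5 most similar genes, with the 5 strongest regions of each class. Pluripotency genes with a single d2-only or d4-only region were named as well. A gene of a wider list is not reported here. Alternatives are given in the closing section. Python 3.11.15, numpy 2.4.6, scipy 1.17.1 and pysam 0.24.0 were used.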

Additional observations from a re-analysis of the deposited data

How the results depend on the processing

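The count of d2-only regions at the 10 genes was 25. It was 14 at a −log10 q of at least 10, and 13 when each library gave its 15000 strongest peaks, and 16 when regions were given by the nearest start alone. The count of d4-only regions was 15, and 7 at a −log10 q of at least 10 and 6 by the nearest start alone. Regions in all 4 libraries numbered 15, and 9 with a 50% reciprocal overlap, 9 from equal lists of 15000 peaks and 6 at a −log10 q of 10 or more. Leaving out 1 library gave 25 to 37 d2-only, 16 to 31 d4-only and 15 to 17 regions in all remaining libraries. The fewer peaks or regions entering most of these settings lower the counts by construction, and a left-out library raises them, as 1 peak then suffices. The d2-only share of the members was 26.9% at a −log10 q of at least 10 (12.5% in the series), 22.8% with equal-sized lists (10.2%) and 25.4% by the nearest start (13.8%), and 35.1% (26.8%) and 37.0% (30.03%) without d2 replicates 1 and 2. These d2-only shares include the genes that were chosen for such regions, so they are a description and not a finding. In the main setting the other 6 genes had 15.7%, beside 13.8% in the series, and their joint share under the alternatives is not given. The d4-only share was 19.3% with equal-sized lists (11.1%), 26.4% (17.8%) and 31.6% (19.6%) without d4 replicates 1 and 2, but 9.52% by the nearest start (9.93%), which turns its direction against the series. Of 240 counts per gene under 12 alternatives, 186 stayed within 1.5 times. Among the others, without d4 replicate 2 the d4-only count went from 1 to 7 at Astn2 and from 0 to 3 at Astn1. No paired analysis was run, and regions were not counted within pairs of equal replicate number. The labels do not say whether equal numbers at d2 and d4 mark the same differentiation experiment. Weak peaks rest on 6 or 7 fragments, so a single missed peak changes the class of a region.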
